A study of Mus musculus with 6 samples.

Results

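The genes described here are Mest and 7 further imprinted genes that act in growth: Peg3, Plagl1, Cdkn1c, Grb10, Gnas, Ndn and H19. They were chosen by their symbols, with the difference of Mest between both groups of mice already known from these data. All 8 are among the 14861 genes of the deposited table. Because the group difference was among the values that led to the choice, it is given for these 8 genes as a description, with its standard error and without a test. The tissue is the inguinal white fat, the subcutaneous pad of the groin. Flox mice (3 libraries) carry an Igf1r gene flanked by loxP sites. AdIGF1RKO mice (3 libraries) carry the same floxed gene together with Adipoq-Cre, which expresses Cre recombinase from the adiponectin promoter and so in adipocytes. The other cells of the pad are not targeted, and the libraries hold RNA of the whole pad. Both groups are littermates from a cross of lines kept on mixed backgrounds. They were kept for 24 weeks on a chow with 10% of kcal from fat and fasted the night before sampling. The labels used here give no sex.

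Imprinted genes are transcribed mainly from the copy inherited from the mother or from the father, and many of them set growth before and after birth. Mest, Peg3, Plagl1 and Ndn are expressed from the paternal copy, H19, Cdkn1c and, in most tissues, Grb10 from the maternal copy. Gnas makes several transcripts of different parental origin. In a widely used model these genes form a network: their levels fall together as organs mature, and the zinc finger factor PLAGL1 controls several of the others. In white fat, Mest, which encodes an alpha/beta hydrolase fold protein of the endoplasmic reticulum, is known as a marker of adipocytes that are enlarging. The values below are gene totals and do not tell the parental copies apart.

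The RefSeq promoter table (build GRCm38.p6, an earlier build than the one of the deposited values) held start regions of 6 of the 8 genes, each a window of 300 bases with 250 before the start. Windows of Mest, Plagl1 and Peg3 are printed. Mest is shown because its level differed and its reads do not say which of its start regions was used. The other 2 genes hold sequences tied to imprinting or to the network. Capitals mark TGCCGC on either strand (GCGGCA on the reverse), the sequence that the imprint-keeping factor ZFP57 binds when methylated, and the palindrome GGGGCCCC, a binding sequence described for PLAGL1. The first Mest window lies at chr6:30733256-30733555, plus strand, and the second at chr6:30737800-30738099, plus strand. The Plagl1 window lies at chr10:13090582-13090881, plus strand, and the Peg3 window at chr7:6730370-6730669, minus strand.
Mest, upstream start: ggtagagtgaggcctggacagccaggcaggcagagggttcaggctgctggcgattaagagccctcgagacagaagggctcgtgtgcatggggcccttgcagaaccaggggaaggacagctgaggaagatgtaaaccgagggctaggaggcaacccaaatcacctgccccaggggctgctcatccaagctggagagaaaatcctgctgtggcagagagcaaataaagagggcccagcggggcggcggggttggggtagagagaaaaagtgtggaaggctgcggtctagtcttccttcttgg
Mest, downstream start: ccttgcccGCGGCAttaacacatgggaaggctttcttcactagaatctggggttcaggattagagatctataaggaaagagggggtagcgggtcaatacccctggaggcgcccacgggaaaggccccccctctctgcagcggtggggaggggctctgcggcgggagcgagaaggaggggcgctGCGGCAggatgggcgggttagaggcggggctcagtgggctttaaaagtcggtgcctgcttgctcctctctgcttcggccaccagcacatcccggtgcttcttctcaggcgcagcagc
Plagl1: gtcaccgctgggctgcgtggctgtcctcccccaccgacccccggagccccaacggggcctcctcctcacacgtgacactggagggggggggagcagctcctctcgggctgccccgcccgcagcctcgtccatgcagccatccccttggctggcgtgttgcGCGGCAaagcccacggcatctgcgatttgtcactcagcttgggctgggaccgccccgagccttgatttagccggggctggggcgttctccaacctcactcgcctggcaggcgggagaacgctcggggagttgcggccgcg
Peg3: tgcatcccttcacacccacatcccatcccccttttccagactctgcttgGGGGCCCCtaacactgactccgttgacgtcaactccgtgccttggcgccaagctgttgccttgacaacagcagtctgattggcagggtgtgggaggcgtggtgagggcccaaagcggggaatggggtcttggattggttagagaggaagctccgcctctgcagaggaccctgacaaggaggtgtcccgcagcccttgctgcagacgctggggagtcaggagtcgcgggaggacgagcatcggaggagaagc

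The upstream Mest window had 8 CpG and neither sequence. The downstream Mest window, where the maternally methylated region of this locus is known to lie, had 17 CpG and 2 matches to TGCCGC. Plagl1 had 26 CpG and 1 match to TGCCGC, and Peg3 had 13 CpG and 1 match to GGGGCCCC. Of the windows not printed, another of Mest, at chr6:30737803-30738102, overlapped the downstream one and also had 17 CpG and 2 matches to TGCCGC. Of those of Grb10, 1, with 45 CpG, also held 1 match to TGCCGC, and those of Gnas and Ndn held neither sequence. The median of all 32851 windows was 7 CpG, 11.6% of them held TGCCGC and 1.08% held GGGGCCCC. These matches describe letters in the windows and are not measured binding.

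Between 60617147 and 70695527 reads per library were recovered from the table. They were divided by median-ratio size factors and are given as scaled CPM, reads per 1000000 reads of a library of average size, which are not divided by gene length. The 8 adipocyte markers summed to 35353 to 46579 scaled CPM in Flox and 38294 to 40928 in AdIGF1RKO, and none was near 0. The libraries differed in muscle RNA: the share of reads in 12 skeletal muscle markers was 11.6% for Flox 3, 4.16% for AdIGF1RKO 3 and 0.0468% to 0.788% for the other 4. Lipid-laden macrophage markers summed to 601 scaled CPM in AdIGF1RKO 2 and to 156 to 173 in the other 5 libraries. General macrophage markers summed to 789 to 1214 in Flox and 857 to 1213 in AdIGF1RKO. The targeted gene, Igf1r, averaged 6.26 ± 0.343 scaled CPM in the Flox libraries and 5.41 ± 0.639 in the AdIGF1RKO libraries (SD, n = 3 each here and below), and the groups overlapped (limma adjusted p = 0.998). Across all 12993 tested genes limma called 0 (0%) at an adjusted p under 0.05, and 385 (2.96%) had an unadjusted p under 0.05, 238 of them higher in AdIGF1RKO. With the values as deposited 57 of 515 such genes were higher, with equal library sums 219 of 244. The count was 582 with the replicate number as a block and 242 without AdIGF1RKO 2. The edgeR quasi-likelihood test called 0 genes (378 unadjusted) and DESeq2 called 23 of 12932 (0.178%; 494 unadjusted). The groups did not overlap for 8.27% of tested genes, with AdIGF1RKO higher for 4.41% and lower for 3.86%.

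Mest was higher in every AdIGF1RKO library than in any Flox library. It had 17.7, 27.8 and 13.6 scaled CPM in Flox 1, 2 and 3, and 58.6, 56.4 and 77.3 in AdIGF1RKO 1, 2 and 3. The lowest AdIGF1RKO value was thus well above the highest Flox value, and each rests on 656 to 4909 reads. The means were 19.7 ± 7.28 in Flox and 64.1 ± 11.5 in AdIGF1RKO, a ratio of 3.26. The log2 difference, on the log2(scaled CPM + 1) scale, was 1.70 (standard error 0.26). Its 95% interval, 1.07 to 2.33, takes no account of the choice of Mest with its difference known and is no test. The difference was the third highest in the direction of AdIGF1RKO among the 12993 tested genes. Between same-numbered libraries the log2 difference was 1.67, 1.00 and 2.42. With the groups apart, any matching of libraries gives the same direction. Without the muscle-rich Flox 3 and AdIGF1RKO 3 the log2 difference of the groups was 1.33. Without AdIGF1RKO 2, the library high in lipid-laden macrophage markers, it was 1.78. The summed endothelial markers were also higher without overlap, with 371 to 417 scaled CPM in Flox and 423 to 514 in AdIGF1RKO (6 of 6 positive, 0 past the limma test). Progenitor markers summed to 4121 to 4892 in Flox and 3967 to 4524 in AdIGF1RKO. The part of cell composition in the Mest values was not tested, and in whole tissue more cells of a type and more RNA per cell cannot be told apart.

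**Figure D1:**
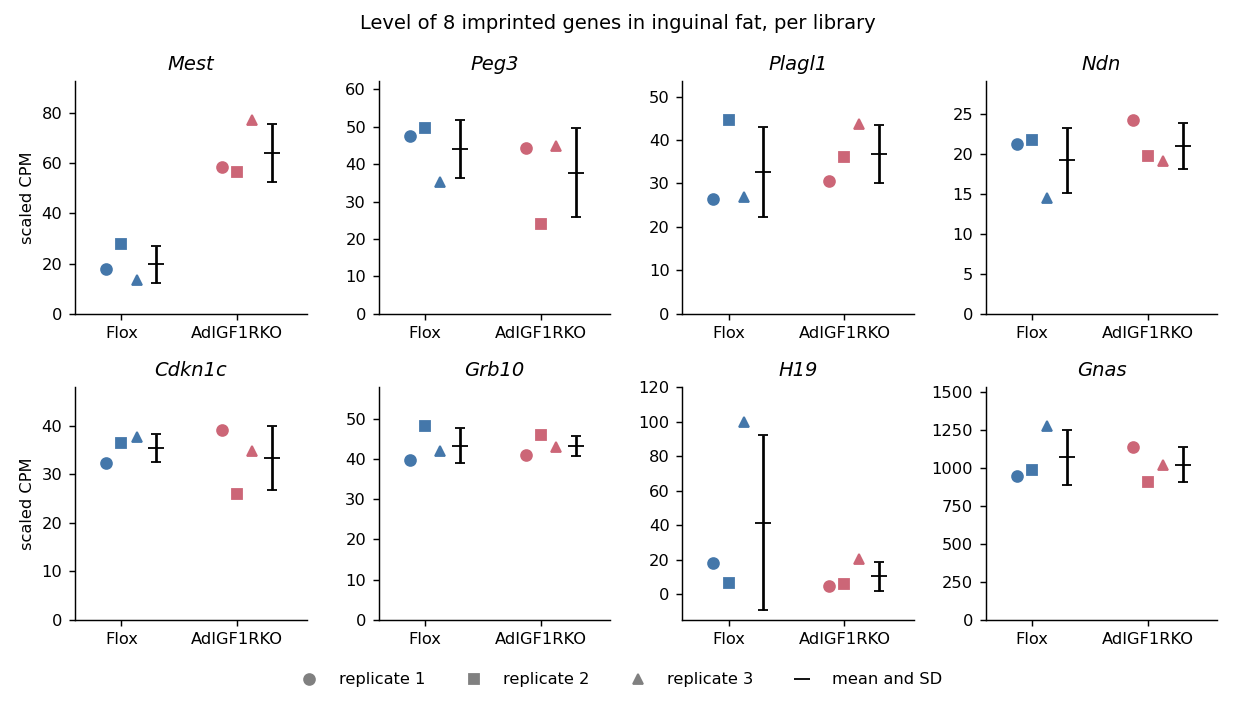
Level of each of the 8 genes in scaled CPM (vertical axis, linear) in the 3 Flox and 3 AdIGF1RKO libraries; marker shapes give the replicate number, and the black bar is the mean with its SD. The groups are apart for Mest only, and the H19 values are spread by Flox 3, at 100.1 scaled CPM.

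The tested genes beside Mest on its chromosome had much smaller differences. These neighbours were taken by their order in the RefSeq table after the Mest values had been seen, as the 4 nearest tested genes on each side. Copg2, whose gene follows Mest and which is also imprinted in some tissues, averaged 31.1 ± 1.46 scaled CPM in Flox against 31.5 ± 0.851 in AdIGF1RKO, a log2 difference of 0.02 (standard error 0.08). Cep41, a centrosomal protein gene on the other side, had 7.67 ± 1.64 and 8.02 ± 0.510 (0.07, standard error 0.17). The other 6 were Tmem209, Klhdc10, Zc3hc1, Lncpint, Mkln1os and Mkln1, with log2 differences from -0.15 for Zc3hc1 to 0.23 for Lncpint. None of the 8 passed the limma test (adjusted p = 0.998 each). Klf14, an imprinted gene of the same chromosome region, had a mean under 1 scaled CPM and was not tested. It averaged 0.632 ± 0.443 scaled CPM in Flox and 1.27 ± 0.517 in AdIGF1RKO, a ratio of 2.02, with overlap.

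The other 3 paternally expressed genes overlapped between the groups. Peg3, a zinc finger factor that affects growth and maternal behaviour, had 47.5, 49.6 and 35.3 scaled CPM in the 3 Flox libraries and 44.4, 24.0 and 44.9 in the 3 AdIGF1RKO libraries. AdIGF1RKO 2 was lowest, and both other AdIGF1RKO libraries lay within the Flox range. Its log2 difference was -0.26 (standard error 0.27). It was 0.03 without AdIGF1RKO 2, -0.40 to -0.41 without Flox 3, AdIGF1RKO 1 or AdIGF1RKO 3, and -0.56 (standard error 0.28) without both libraries numbered 3. Zim1, a zinc finger gene of the same imprinted domain that was picked out after its values were seen, was also lowest there, with 1.19 scaled CPM against 2.71 to 3.29 in the other 5 libraries. The lipid-laden macrophage markers given above were highest in that library, and their part in the Peg3 value was not tested.

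Plagl1, the zinc finger factor of the network, had 26.4, 44.6 and 26.9 scaled CPM in Flox and 30.6, 36.1 and 43.8 in AdIGF1RKO. Flox 2 was the highest of the 6, so the groups overlapped. Its log2 difference was 0.20 (standard error 0.23, 95% interval -0.37 to 0.76), and it ranged from -0.05 without both libraries numbered 3 to 0.44 without Flox 2. Ndn encodes necdin, a protein of the MAGE family that restrains proliferation of fat cell precursors. It had 21.2, 21.7 and 14.5 scaled CPM in Flox and 24.2, 19.7 and 19.03 in AdIGF1RKO, with Flox 3 lowest (log2 difference 0.14, standard error 0.18). Without Flox 3 the Ndn difference was -0.04, and without rescaling the deposited values, which puts the median gene at -0.17, it was -0.02.

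Among the maternally expressed genes, Cdkn1c and Grb10 overlapped between the groups. Cdkn1c encodes p57, an inhibitor of cyclin-dependent kinases. It had 32.3, 36.4 and 37.7 scaled CPM in Flox and 39.1, 26.0 and 34.9 in AdIGF1RKO, with AdIGF1RKO 2 lowest (log2 difference -0.10, standard error 0.16). Its difference was 0.06 without AdIGF1RKO 2 and 0.02 with libraries scaled to equal sums, where the median of all genes was 0.09. Grb10 encodes an adaptor that binds the insulin and IGF1 receptors and dampens their signalling. It was the steadiest of the 8 genes, with 39.7, 48.2 and 41.8 scaled CPM in Flox and 40.9, 45.9 and 42.9 in AdIGF1RKO. Its means were 43.2 ± 4.40 and 43.2 ± 2.52, and its log2 difference was 0.00 (standard error 0.11, 95% interval -0.25 to 0.26). That value followed the scaling, at -0.16 as deposited and 0.12 with equal sums.

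H19, a maternally expressed long noncoding RNA that stays abundant in adult muscle, varied most. It had 18.3, 6.57 and 100.1 scaled CPM in Flox 1, 2 and 3 and 4.80, 6.14 and 20.3 in AdIGF1RKO 1, 2 and 3. Flox 3 stood far above the rest, and the groups overlapped. The Flox mean of 41.7 had an SD of 51.0, and the AdIGF1RKO mean was 10.4 ± 8.57. The log2 difference was -1.36 (standard error 0.98, 95% interval -3.71 to 1.00). It was -0.34 without Flox 3, -2.20 without Flox 2, -0.91 without both libraries numbered 3 and -0.74 (standard error 0.29) with the muscle markers as a covariate. With the replicate number as a block it stayed at -1.36 and the standard error was 0.41. Between same-numbered libraries the difference was -1.73, -0.09 and -2.25. The share of reads in muscle markers was 0.788%, 0.0902% and 11.6% in Flox 1, 2 and 3, and 0.0468%, 0.249% and 4.16% in AdIGF1RKO 1, 2 and 3. The 3 libraries with the highest H19 were thus the 3 with the most muscle RNA. All 12 muscle markers had a negative log2 difference, and none passed the limma test. How much of the H19 difference goes with muscle RNA beyond these values was not tested.

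Igf2, the paternally expressed growth factor gene that neighbours H19, did not share the peak in Flox 3. It had 10.7, 14.7 and 14.4 scaled CPM in Flox and 10.4, 10.5 and 11.8 in AdIGF1RKO, with overlap (log2 difference -0.25, standard error 0.15, limma adjusted p = 0.998). Instead, 3 other listed imprinted genes were highest in the muscle-rich libraries. Slc38a4, an amino acid transporter gene, had 5.17, 2.89 and 90.0 scaled CPM in Flox and 0.895, 2.57 and 27.8 in AdIGF1RKO. Cobl, an actin nucleator gene, had 68.3 in Flox 3, 21.9 in AdIGF1RKO 3 and 2.00 to 4.89 elsewhere. Asb4, a ubiquitin ligase adaptor gene, had 6.78 and 2.29 in these and 0.350 to 1.44 elsewhere. Their log2 differences of -1.16, -0.71 and -0.70 were the most negative of the wider list, with a limma adjusted p of 0.998 for each. Without Flox 3 they were 0.24, 0.63 and -0.04, and with the muscle covariate -0.24, 0.10 and -0.31.

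**Figure D2:**
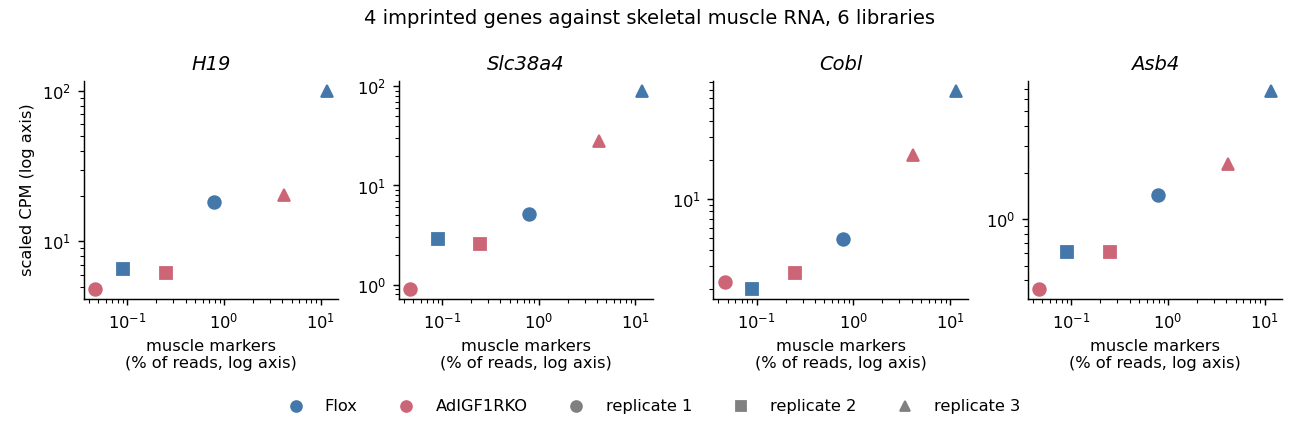
Scaled CPM (vertical log axis) of H19, Slc38a4, Cobl and Asb4 against the percent of reads in 12 skeletal muscle markers (horizontal log axis), 1 point per library. For each of the 4 genes the highest point is Flox 3, at 11.6% muscle reads, and the next is AdIGF1RKO 3, at 4.16%.

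Gnas encodes the stimulatory G protein alpha subunit, through which beta-adrenergic receptors raise cAMP in adipocytes, along with several imprinted alternative products. It had 946, 985 and 1275 scaled CPM in Flox and 1138, 907 and 1015 in AdIGF1RKO. The groups overlapped, with Flox 3 highest, and the means were 1069 ± 179 and 1020.0 ± 116. Its log2 difference was -0.06 (standard error 0.15). It was 0.07 without Flox 3, 0.02 without AdIGF1RKO 2 and 0.06 with equal sums. The table has a single row for the locus, so its transcripts are not separated.

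Of the 8 genes, 4 had a positive and 4 a negative log2 difference, beside 44.8% positive over all tested genes. The median log2 difference of the 8 was -0.03, against -0.02 over all tested genes. The groups did not overlap for 1 of the 8, Mest, beside 8.27% of all tested genes. Per length, using merged exons of the GENCODE M21 annotation, Gnas was the most abundant in both groups, at 103 ± 17.3 scaled CPM per kilobase in Flox and 98.3 ± 11.2 in AdIGF1RKO. These lengths come from another annotation than the authors', so the order is approximate. In Flox, Cdkn1c, well below Gnas, had 18.3 ± 1.46 and H19 18.2 ± 22.3 scaled CPM per kilobase. Grb10 followed with 8.43 ± 0.857 and Mest with 7.09 ± 2.62. Plagl1 (6.06 ± 1.93), Ndn (5.18 ± 1.10) and Peg3 (5.08 ± 0.888) came next. From Grb10 down each gene lay within the spread of its neighbour, and so did H19 and Cdkn1c. In AdIGF1RKO, Mest had 23.1 ± 4.15 and stood second, next to Cdkn1c with 17.2 ± 3.43, whose spread it met. Grb10 (8.43 ± 0.491), Plagl1 (6.84 ± 1.23), Ndn (5.68 ± 0.770), H19 (4.55 ± 3.75) and Peg3 (4.34 ± 1.37) followed. Cdkn1c and Grb10 were apart by more than their spread, and from Grb10 down the neighbours were not.

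Within the groups, the 8 genes did not move as 1 block. Over the 28 pairs, the Pearson correlation of deviations from the group means over the 6 libraries had a median of 0.08 and was positive for 16. These correlations are descriptions of 6 libraries that share depth differences and cell content. The highest were Mest with Plagl1 (r = 0.90), Plagl1 with Grb10 (r = 0.82) and Cdkn1c with Gnas (r = 0.74). For Mest and Plagl1, Flox 2 was highest among the Flox libraries and AdIGF1RKO 3 highest among the AdIGF1RKO libraries; between the groups, Mest was apart and Plagl1 overlapped. Of 8941 genes with a mean of at least 10 scaled CPM, predicted genes included, 1.42% followed the deviations of Mest as closely as Plagl1 did. The lowest were Ndn with H19 (r = -0.89), Mest with H19 (r = -0.55) and Mest with Gnas (r = -0.48). In Flox 3, with the most muscle RNA, Ndn was lowest and H19 highest.

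**Figure D3:**
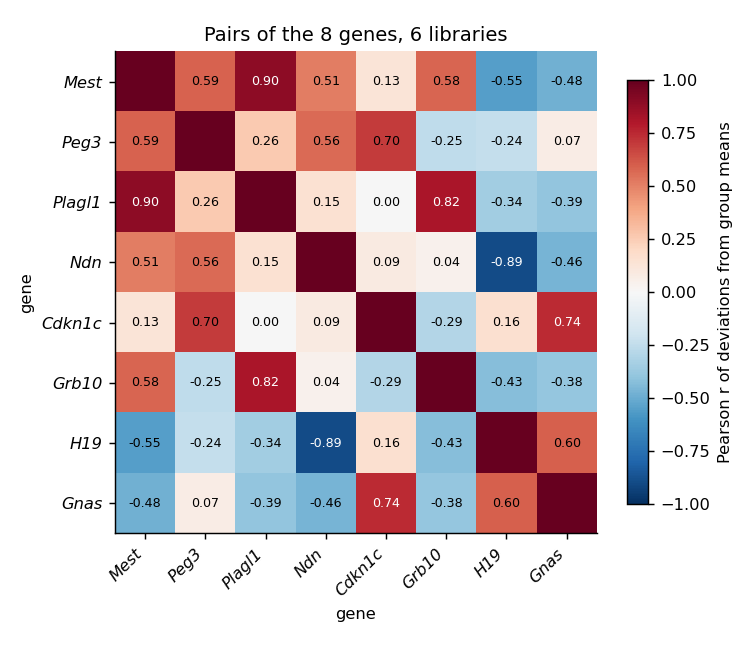
Pearson correlation (colour, from -1 to 1, and printed value) of deviations from the group means on the log2(scaled CPM + 1) scale, for each pair of the 8 genes over 6 libraries. Mest goes with Plagl1 (0.90) and against H19 (-0.55), and signs are mixed across the 28 pairs.

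In the wider set of imprinted genes the largest positive log2 difference was 0.43, for Kcnq1ot1, against 1.70 for Mest. Without Flox 3, Cobl was higher, at 0.63. A list of 59 further imprinted genes was written with earlier results of these data known, and 50 of them were in the table and 39 tested. By limma 0 were past the threshold as higher and 0 as lower, and 1 had an unadjusted p under 0.05, beside 2.96% of all tested genes. By edgeR and by DESeq2 0 passed as well, with 1 at an unadjusted p under 0.05 in each, and the unadjusted count by limma was 3 with the replicate number as a block and 2 without Flox 3. The groups did not overlap for 2 of 39, beside 8.27% of all tested genes. The log2 difference was positive for 12 and negative for 27, beside 44.8% positive over all tested genes. The median of the list was -0.04, against -0.02 for all genes. With equal sums 28 were positive and the median was 0.08, against 0.09 for all genes, and with the values as deposited 3 were positive and the median was -0.20, against -0.17. Genes listed as paternally expressed (14 tested) had a median of -0.04 and those listed as maternally expressed (21 tested) a median of -0.06. These classes come from the list, and the parental copy used in this tissue was not measured.

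Kcnq1ot1, the paternally expressed long noncoding RNA that silences its neighbours, had the largest positive difference of the list on this scale. At its low level the value moved with the pseudocount, to 0.62 with 0.1 and 0.18 with 5, and it was 0.66 by edgeR and by DESeq2. It had 1.36, 1.40 and 1.70 scaled CPM in Flox and 2.00, 2.26 and 2.77 in AdIGF1RKO, without overlap. The standard error of its difference was 0.16 and the limma adjusted p was 0.998, and it was the listed gene with an unadjusted p under 0.05. It is antisense to Kcnq1, a potassium channel gene with 4.11, 9.34 and 1.66 in Flox and 4.33, 2.32 and 2.13 in AdIGF1RKO. Whether the authors' counting used strand is not given in the sources used here, so the reads of these 2 genes may be mixed. Atp10a (a phospholipid flippase gene), Peg10 (derived from a retrotransposon) and Slc22a3 (an organic cation transporter gene) came next, with 0.26, 0.16 and 0.12, and their groups overlapped. Meg3, a maternally expressed long noncoding RNA, was the other gene without overlap, with 62.6, 73.0 and 63.2 scaled CPM in Flox and 61.4, 55.9 and 60.6 in AdIGF1RKO (log2 difference -0.16, standard error 0.10). Dlk1, the preadipocyte inhibitor of fat cell formation from the same domain, had 2.63 to 3.79 in Flox and 2.11 to 4.07 in AdIGF1RKO. Igf2r, which clears IGF2, had 18.8 to 23.7 and 17.0 to 21.2. None of Kcnq1ot1, Kcnq1, Atp10a, Peg10, Slc22a3, Meg3, Dlk1 and Igf2r passed the limma test (adjusted p = 0.998 each).

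**Figure D4:**
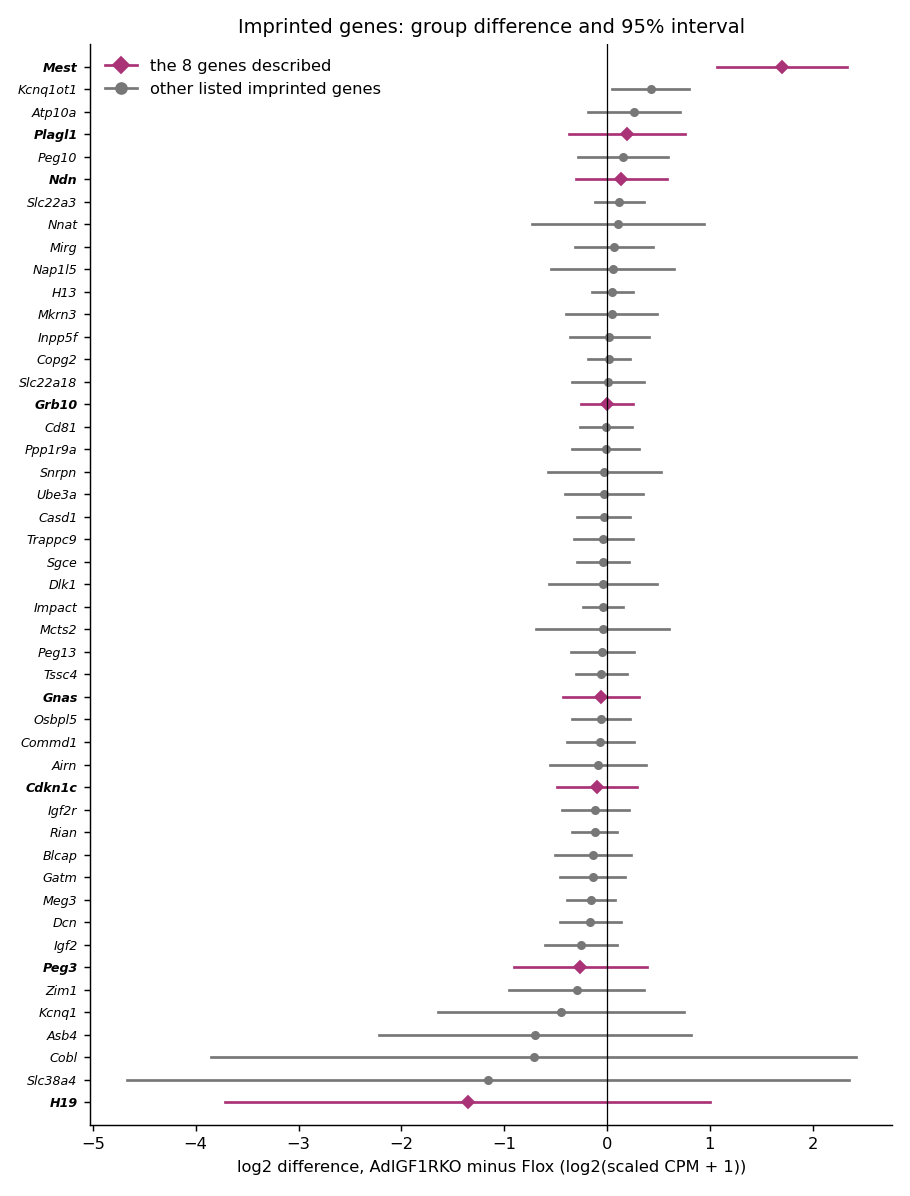
Log2 difference between AdIGF1RKO and Flox (horizontal axis, log2(scaled CPM + 1) scale) with its 95% interval from the limma fit, for the 8 genes (diamonds, bold names) and 39 other imprinted genes (circles). The intervals are not adjusted for the choice of genes or for the number of genes tested. Mest stands alone at 1.70, most others lie near 0, and the widest intervals belong to H19, Slc38a4, Cobl and Asb4.

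Genes known to accompany Mest in expanding fat were higher in the same libraries. A list of 5 such genes was written with the differences of most of them already known, so it is no independent support. For all 5 genes every AdIGF1RKO value exceeded every Flox value, beside 4.41% of tested genes in that direction. Bmp3, a growth factor of the bone morphogenetic protein family, had 8.70, 12.6 and 5.37 scaled CPM in Flox and 15.1, 14.3 and 16.7 in AdIGF1RKO (log2 difference 0.79, standard error 0.27, limma adjusted p = 0.998). Its difference was 0.50 without Flox 3 and 0.45 without both libraries numbered 3, and that of Npr3 went from 0.91 to 0.57 without both. Nkd1, an intracellular Wnt inhibitor, had 6.41, 7.46 and 6.26 in Flox and a narrow 10.4, 10.5 and 10.5 in AdIGF1RKO (0.57, standard error 0.11, limma adjusted p = 0.998). Sfrp5, a secreted Wnt inhibitor, had 14.4 to 24.3 in Flox and 30.9 to 39.7 in AdIGF1RKO. Lep, the leptin gene, had 159 to 277 and 396 to 580.0, and Npr3, the natriuretic peptide clearance receptor gene, 86.7 to 159 and 187 to 261. By limma 0 of the 5 passed (5 at an unadjusted p under 0.05), by edgeR 0 passed, and DESeq2 called 3 of them, Lep (adjusted p = 0.000675), Nkd1 (adjusted p = 0.0324) and Sfrp5 (adjusted p = 0.0318), beside 0.178% of all genes. Of the 6 genes Mest had the largest ratio of means, 3.26, against 2.32 for Lep, 1.97 for Sfrp5, 1.85 for Npr3, 1.72 for Bmp3 and 1.56 for Nkd1. In Flox, 5 of the 6 genes were highest in Flox 2 and lowest in Flox 3, and Sfrp5 was highest in Flox 2 and lowest in Flox 1.

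**Figure D5:**
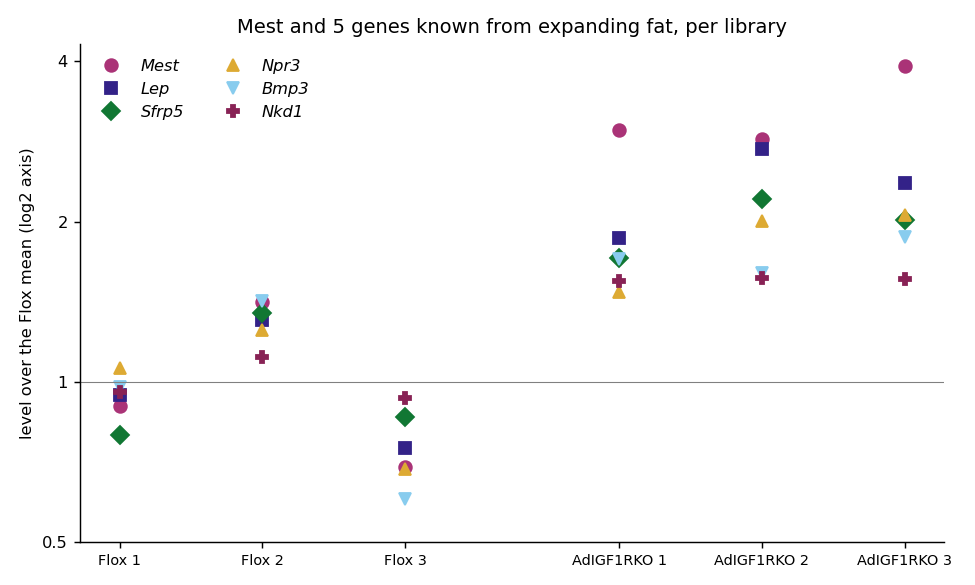
Level of Mest, Lep, Sfrp5, Npr3, Bmp3 and Nkd1 in each of the 6 libraries, divided by the gene's Flox mean (vertical log2 axis, 1 is the Flox mean). All 6 genes lie above 1 in the 3 AdIGF1RKO libraries, with Mest the highest of the 6 in each, and in Flox they are highest in Flox 2.

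Other genes tracked Mest more closely with smaller differences. The 8930 genes ranked here had a mean of at least 10 scaled CPM and leave out predicted genes and the 8 genes described. The 8 with the highest Pearson correlation over the 6 libraries began with Irak2 (r = 0.99). Ssbp3, Apex2, Ikbip, Rtn4rl1, Adamts5, Cdr2 and Hip1 (r = 0.96) followed. Irak2 encodes a kinase of interleukin-1 receptor signalling, and Adamts5, a protease gene of the extracellular matrix, had 34.4 ± 3.97 scaled CPM in Flox against 54.1 ± 7.03 in AdIGF1RKO. The log2 differences of these 8 went from 0.08 for Ssbp3 to 0.73 for Cdr2, and none passed the limma test (adjusted p = 0.998 each). Lep stood ninth in this order (r = 0.96), and a step between the groups is part of every such correlation. On deviations from the group means the closest were Ocel1, Pcf11, Pnisr, Slc18b1 and Fgfrl1 (r from 0.99 to 1.00). Both orders show the top of 8930 genes over only 6 libraries, and how high such values run without any link was not tested. Between the groups these 5 had log2 differences from -0.23 for Pcf11 to 0.07 for Slc18b1. Bmp3 stood at place 53 in that second order (r = 0.94) and was the closest of the fat expansion genes ranked.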

How the data were processed

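Polyadenylated RNA of 6 mouse inguinal fat samples went into stranded libraries, per the labels' protocols. Build GRCm39 is named in the submitters' processing notes. For aligner, counter and annotation, the sources used here give none. The authors deposited 1 table of signal values for 14861 genes, named FPKM. In each library 100% of values were, within a tolerance of 0.5, whole reads times 1000000000 over 1 divisor, so the deposited signal is a scaled count not divided by gene length. Every row names a gene, and the table holds no 0.

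Median-ratio size factors (0.731 to 1.17) scaled these reads, expressed as scaled CPM, where 1 read is worth 0.0130 to 0.0207. Genes with a mean of at least 1 (12993) were fitted with limma 3.58.1 (R 4.3.3) on log2(value + 1) with a trend of the variance on mean level, two-sided and adjusted by Benjamini-Hochberg over all tested genes. The edgeR 4.0.16 quasi-likelihood test and DESeq2 1.42.0 were run on the recovered reads. Scripts were tested on simulated data. Where p-values are given, they measure the spread between libraries. The titles say mice for each and do not say whether a library comes from a single animal or a pool. The members and lists were chosen with earlier results of these data known. Named genes are the 8 genes, Igf1r, of the wider list the 4 most positive and 4 most negative plus Igf2, Igf2r, Dlk1 and Meg3, the 5 fat expansion genes, the genes most correlated with Mest and the 6 extreme pairs. Predicted genes were passed over.

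Flox and AdIGF1RKO libraries share replicate numbers. Deviations from the group means of same-numbered libraries correlated at 0.35, 0.35 and 0.83 over 12993 genes for numbers 1, 2 and 3. Differently numbered libraries also correlated, Flox 2 with AdIGF1RKO 1 at 0.70 and Flox 1 with AdIGF1RKO 2 at 0.33, and the other 4 such correlations were negative. Deviations cancel out within each group, so these correlations depend on each other. They cannot tell whether numbers 1 and 2 are pairs. Every same-number value exceeded 0.1. The replicate number entered as a block in an alternative fit only, and the main fit did not use it. The labels do not say whether the numbers mark pairs of samples.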

Additional observations from a re-analysis of the deposited data

How the results depend on the processing

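The log2 difference of Mest was 1.33 to 1.96 over every alternative run. Leaving out 1 library gave 1.47 to 1.96, the replicate block 1.70, the muscle covariate 1.63, the values as deposited 1.54, equal sums 1.81, a pseudocount of 5 1.51 and a pseudocount of 0.1 1.75. The count of genes past the threshold was 0 with limma under each alternative except without Flox 1, where it was 1, so leaving out 1 library gave 0 to 1, and DESeq2 gave 23. The count of listed imprinted genes past it was 0 under each alternative, and the replicate block changed no call. Of the wider list's genes named by the rule above, 6 changed direction under some alternative, and Zim1, picked out later, had 0.0027 without AdIGF1RKO 2. Slc22a3 had -0.041 as deposited. Igf2r had 0.0036 with equal sums and 0.057 without both libraries numbered 3. Dlk1 had 0.054 with equal sums, 0.016 with the muscle covariate, 0.057 without Flox 3 and 0.16 without AdIGF1RKO 2. Kcnq1 had 0.048 without Flox 2. Slc38a4 had 0.24 and Cobl 0.63 without Flox 3, and Cobl had 0.096 with the muscle covariate. Over the fits that leave out 1 library, the values ran from -2.32 for Slc38a4, -1.63 for Cobl, -0.93 for Kcnq1 and -0.20 for Dlk1 up to those given. The causes were not tested. With a minimum mean of 5, Asb4, Kcnq1, Kcnq1ot1, Dlk1, Peg10, Atp10a and Zim1 were not tested, so they have no value there. With 3 libraries a group, the standard errors of the 8 genes ran from 0.11 for Grb10 to 0.98 for H19, and the block lowered that of H19 to 0.41.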

Other observations

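Of the 50 listed imprinted genes in the table, 11 had a mean under 1 scaled CPM and were not tested. Klf14, a maternally expressed transcription factor gene of adipocytes from the same chromosome region as Mest, had 0.424, 1.14 and 0.332 scaled CPM in Flox and 1.40, 0.707 and 1.72 in AdIGF1RKO, with overlap. Usp29, the paternally expressed gene beside Peg3, had 0.339, 0.114 and 1.02 in Flox and 0.182, 0.0424 and 0.268 in AdIGF1RKO, where the lowest value is 3 reads. Sfmbt2 had 1.57 in AdIGF1RKO 2 and 0.221 to 0.622 in the other 5 libraries. These genes were picked out after their values were seen.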
